A study of Mus musculus with 4 samples.

Results

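The profilins, cofilins and other actin monomer binders are described here in GC-1 cells, a mouse spermatogonial line, transfected with an Hdac6 vector or an empty vector. They were chosen by gene name as Pfn1, Pfn2, Pfn3, Pfn4, Cfl1, Cfl2, Dstn, Cap1, Twf1 and Tmsb4x, 10 of the 37074 gene names on the array, and they are read by 19 of its 56605 probes. One group received a pCMV plasmid carrying the murine Hdac6 gene with a myc/DDK tag, driven by the CMV promoter, and the other received the empty vector. Each group has 2 one-colour Agilent arrays, hybridised with Cy3-labelled RNA of cells harvested 48 h after transfection. Both groups were thus transfected, and the labels name no step that separated cells that took up plasmid from those that did not. Separate cultures are not stated for the arrays of a group, so the spread that p-values measure here is that between these samples and may be technical. The study's title names profilin 2 as raised by Hdac6, so the comparison asks whether the RNA of this family differed between the 2 vectors.

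Actin cycles between single subunits, called monomers or G-actin, and filaments, and most monomers in a cell are held by small binding proteins. Profilins load monomers with ATP and hand them to formins and Ena/VASP proteins at growing filament ends. Cofilins and destrin sever old filaments and bind the ADP-actin that comes off, cyclase-associated protein recycles those monomers, twinfilin caps filament ends and binds monomers, and beta-thymosins keep a reserve of monomers out of filaments. Pfn1 is the profilin of most tissues, Pfn2 is best known from neurons, and Pfn3 and Pfn4 are known from the testis, where they belong to developing spermatids.

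The array reads these genes at unlike places, and 14 of the 19 probes are assigned to a RefSeq mRNA, while the other 5 are assigned only to Ensembl transcripts or cDNA clones. Probes of a gene are numbered here from the brightest, and positions, 1-based, come from the scanner files (build mm9). Pfn2 probe 1 (chromosome 3, 57645886 to 57645945, minus strand) belongs to the RefSeq mRNA, and Pfn2 probe 2 (57649392 to 57649451) lies 3506 bases away towards the 5′ side and is listed for 1 Ensembl transcript alone. Pfn1 probe 2 is listed for an Ensembl transcript and a cDNA clone, and not for a RefSeq mRNA. Pfn1 probe 1 spans 625 bases of genome and skips 565, so it reads spliced RNA. Pfn1 probe 2 lies inside the skipped stretch, which RNA spliced in that way lacks. Pfn4 probe 1 (chromosome 12, 4781284 to 4782233, plus strand) and Cap1 probe 2 (chromosome 4, 122537452 to 122539227, minus strand) also span more genome than their 60 bases. They jump 890 and 1716 bases, and so read spliced RNA. The sequences below show which stretch of a transcript was measured. They were picked by hand, from background knowledge, as probes that read the coding part of an mRNA of this family, and no annotation of coding parts was used here to test that. The coordinates bear only on the probes of Pfn4 and Cap1 among them, which read spliced RNA. The sequences are copied from the scanner files in the sense of the mRNA, 5′ to 3′.
Pfn3 probe 1: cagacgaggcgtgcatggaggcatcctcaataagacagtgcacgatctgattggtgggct
Pfn4 probe 1: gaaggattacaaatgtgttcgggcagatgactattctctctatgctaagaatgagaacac
Cfl1 probe 2: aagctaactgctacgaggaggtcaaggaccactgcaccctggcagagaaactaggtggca
Cap1 probe 2: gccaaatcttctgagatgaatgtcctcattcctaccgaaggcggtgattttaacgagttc
Twf1 probe 2: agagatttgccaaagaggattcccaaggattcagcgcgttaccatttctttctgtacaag

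Levels are log2 processed signals minus the array's 75th percentile, so 0 is the signal of a probe brighter than 75% of the array. They are compared between arrays for the same probe and not between probes, which bind with different strength, so they give no order of abundance among the genes. That percentile was a processed signal of 453 to 815, and 61.0% to 66.4% of the spots were flagged by the scanner software as well above background. The Hdac6 probe, which checks the vector, read 3.31 and 2.83 on the empty vector arrays and 2.62 and 3.24 on the Hdac6 vector arrays (0.909-fold, 95% interval 0.578 to 1.43, limma adjusted p = 1.00). The groups overlap, so these arrays do not show more Hdac6 RNA with its vector, and the sources used here do not say whether the plasmid's insert holds the stretch that the probe reads. Of 35205 probes tested, 0.0114% passed the limma test at an adjusted p under 0.05 (4 higher, 0 lower with the Hdac6 vector). The germ cell markers Zbtb16, Uchl1, Etv5 and Id4 were well above background on all 4 arrays, 4 of the 10 looked for, while Dazl, Kit and Sycp3 were so on none. Of the 5 Sertoli cell markers Sox9, Wt1, Gata4 and Amhr2 were well above background on all 4 arrays and Amh on none. The summed signal, in multiples of the array's 75th percentile, was 40.0 and 19.7 on the empty vector arrays and 18.4 and 25.2 on the Hdac6 vector arrays for the germ cell markers, and 147 and 118 against 105 and 142 for the Sertoli cell markers. Cyp17a1 was the only Leydig cell marker of 4 above background on all arrays (sums of 0.255 to 0.352).

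Neither Pfn2 probe passed the test. Probe 1 had the lower group mean with the Hdac6 vector, except without empty vector 1 (log2 0.19). So did probe 2, except with normexp background correction (0.016), but it was tested only through the empty vector arrays, where it is higher. The direction of probe 2 is therefore not a separate sign of the same difference. Probe 1 passed the background flag on every array and read 4.40 and 3.47 on the empty vector arrays and 3.45 and 3.87 on the Hdac6 vector arrays. Empty vector 1 stood highest, empty vector 2 and Hdac6 vector 1 were alike, and the groups overlap. With n = 2 in each group the ratio was 0.828-fold (95% interval 0.495 to 1.38, limma adjusted p = 1.00). This interval reaches from a fall of about 2-fold to a rise below 1.5-fold, and the gap of 0.93 between the empty vector arrays exceeded the log2 difference between the groups, -0.27. In bulk RNA a difference in the number of cells that express a gene and one in RNA per cell cannot be told apart.

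Pfn2 probe 2 gave processed signals of 12.4 and 24.0 on the empty vector arrays and 11.3 and 8.18 on the Hdac6 vector arrays. These correspond to levels of -5.75 and -4.85 against -6.17 and -5.79. It was flagged well above background on both empty vector arrays and on neither Hdac6 vector array, a pattern shared by 1.13% of all 56605 probes. Empty vector 1 and Hdac6 vector 2 differ by little, at -5.75 and -5.79, although the flag separates them. The probe was tested only through its flags on the empty vector arrays, where it is higher, so its direction carries that selection. With the Hdac6 vector arrays raised to the lowest signal that was flagged on each, their group mean was 1.21-fold lower. This value rests on empty vector 2, since empty vector 1, at -5.75, lies below the raised Hdac6 vector mean of -5.58. Fitted to the readings as they stand, the log2 difference ran from -1.13 to -0.23 with an array left out. Its 95% interval from all 4 arrays, -1.62 to 0.26, includes no change (limma adjusted p = 1.00).

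By the root mean square difference of centred levels over the 4 arrays, the genes most like Pfn2 probe 1 were 9530053J19Rik (0.0088), Taf1 (0.018), which encodes a subunit of the general transcription factor TFIID, and Ust (0.025), a sulfotransferase gene. Taf1 read 4.49 and 3.60 on the empty vector arrays and 3.59 and 3.98 on the Hdac6 vector arrays. Each of them had its highest level on empty vector 1, as Pfn2 did. With 4 arrays and all genes searched, such likeness is a description only.

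Pfn1, the widely expressed profilin, had overlapping groups on both of its probes. Probe 1 was at 3.68 and 4.16 on the empty vector arrays and at 3.96 and 4.04 on the Hdac6 vector arrays. Both Hdac6 vector values lie between those of the empty vector. The difference was 1.06-fold (95% interval 0.714 to 1.57, limma adjusted p = 1.00). Probe 2, inside the stretch that the spliced probe 1 skips, was at 0.98 and 1.32 against 1.00 and 1.48 (1.07-fold, 0.700 to 1.63, limma adjusted p = 1.00).

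The spermatid profilins were dim. Pfn3 (chromosome 13, 55516133 to 55516192, minus strand) gave processed signals of 1.97 and 5.34 on the empty vector arrays and 6.10 and 4.48 on the Hdac6 vector arrays. Pfn4 gave 1.83 and 2.31, and 2.91 and 2.62. Neither was well above background on any array, so neither was tested and no fold is given. Among the profilins, then, signal above background on all arrays came from Pfn1 and from Pfn2 probe 1.

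**Figure D1:**
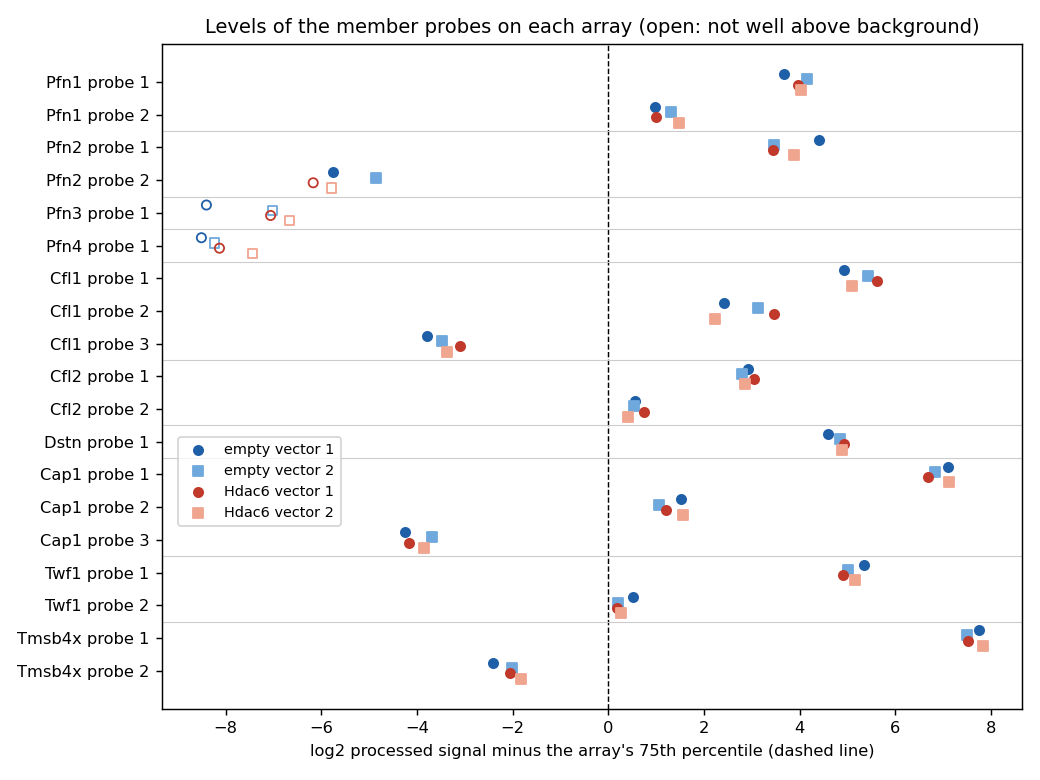
Level of each of the 19 member probes on each array, as log2 processed signal minus the array's 75th percentile (dashed line); blue marks the empty vector, red the Hdac6 vector, circles replicate 1 and squares replicate 2. Filled marks are well above background; Pfn3 and Pfn4 are open on all 4 arrays, and Pfn2 probe 2 is open on both Hdac6 vector arrays only.

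Among the severing proteins, Cfl1, the cofilin of most non-muscle cells, was at 4.93 and 5.43 on the empty vector arrays and 5.62 and 5.09 on the Hdac6 vector arrays on probe 1 (chromosome 19, 5493882 to 5493941, plus strand). The replicates of each group lay further apart than the group means, and the groups overlap (1.13-fold, 95% interval 0.721 to 1.77, limma adjusted p = 1.00). Probe 2, whose sequence is printed above, was at 2.43 and 3.13 against 3.47 and 2.23 (1.05-fold, 0.561 to 1.97). Its gap of 1.23 between the Hdac6 vector arrays was the largest replicate gap among the tested member probes. Probe 3 (5494708 to 5494767), listed for cDNA clones and not for a RefSeq mRNA, was at -3.80 and -3.48 against -3.11 and -3.37. Here both Hdac6 vector arrays were above both empty vector arrays, at 1.32-fold (0.792 to 2.21), and the test was not passed (limma adjusted p = 1.00). Without a RefSeq mRNA for probe 3, the source of its signal is uncertain. Cofilin has processed copies in the genome that can share its sequence, and their part in the signal of any of the 3 probes was not tested.

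Cfl2 is the cofilin best known from muscle. Probe 1 (chromosome 12, 55961445 to 55961504, minus strand) was at 2.92 and 2.80 on the empty vector arrays and 3.05 and 2.87 on the Hdac6 vector arrays (1.07-fold, 95% interval 0.747 to 1.53, limma adjusted p = 1.00). Its 4 levels lay within 0.25, the narrowest range of the 17 tested probes. Probe 2 was at 0.56 and 0.54 against 0.74 and 0.41 (1.02-fold, 0.688 to 1.51), so on both probes Hdac6 vector 1 was highest and the groups overlap.

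Dstn encodes destrin, also called actin depolymerising factor, and has 1 probe (chromosome 2, 143768261 to 143768320, plus strand). It was at 4.59 and 4.84 on the empty vector arrays and at 4.93 and 4.88 on the Hdac6 vector arrays. The groups do not overlap, but Hdac6 vector 2 exceeded empty vector 2 by little. The difference was 1.14-fold (95% interval 0.790 to 1.65, limma adjusted p = 1.00).

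Cap1 encodes cyclase-associated protein 1, which strips ADP-actin from filament ends and recycles it. Probe 1 (chromosome 4, 122536337 to 122536396, minus strand) holds AATAAA, the sequence of a polyadenylation signal, at base 40 of its 60 bases. Whether it reads the 3′ end of the mRNA was not tested. Probe 1 was at 7.10 and 6.83 on the empty vector arrays and 6.69 and 7.12 on the Hdac6 vector arrays. Empty vector 1 and Hdac6 vector 2 were alike and high, the other pair was lower, and the groups overlap (0.961-fold, 95% interval 0.630 to 1.47, limma adjusted p = 1.00). The spliced probe 2 kept the same order of pairs, at 1.51 and 1.05 against 1.20 and 1.56 (1.07-fold, 0.703 to 1.63). Probe 3 (122548336 to 122548395), 11999 bases from probe 1 and without a RefSeq mRNA, was at -4.26 and -3.68 against -4.16 and -3.85 (0.977-fold, 0.558 to 1.71).

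Twf1 encodes twinfilin 1, and both of its probes are assigned to the RefSeq mRNA. Probe 1 (chromosome 15, 94408549 to 94408608, minus strand) was at 5.34 and 5.02 on the empty vector arrays and 4.90 and 5.17 on the Hdac6 vector arrays. Probe 2 (94411682 to 94411741), 3133 bases away, was at 0.52 and 0.21 against 0.19 and 0.26. The probes gave nearly the same difference, 0.903-fold (95% interval 0.612 to 1.33) and 0.906-fold (0.608 to 1.35), with empty vector 1 highest and Hdac6 vector 1 lowest on each. Neither passed (limma adjusted p = 1.00 for both), and the groups overlap.

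Tmsb4x encodes thymosin beta 4, the main beta-thymosin of most cells. Probe 1 (chromosome X, 163645095 to 163645154, minus strand) was at 7.74 and 7.50 on the empty vector arrays and 7.53 and 7.84 on the Hdac6 vector arrays. It was brighter than 99.6% to 99.8% of all probes on each array. The difference was 1.04-fold (95% interval 0.688 to 1.58, limma adjusted p = 1.00), with empty vector 1 and Hdac6 vector 2 above the other pair. Probe 2 (163646256 to 163646315), listed for an Ensembl transcript, was at -2.41 and -2.01 against -2.06 and -1.83 (1.20-fold, 0.745 to 1.94), with overlapping groups.

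In all, 17 probes of 8 members were well above background on both arrays of at least 1 group and were tested, and 0 passed the limma test after adjustment over all probes. An unadjusted p under 0.05 was reached by 0 of the 17 as well, the smallest being 0.135 for Pfn2 probe 2, against 1.83% of all tested probes. The log2 fold change was above 0 for 11 of the 17, against 53.2% of all tested probes. Its median was 0.07, against 0.02 over all tested probes. With median scaling 7 of the 17 were above 0 (median -0.019), and without Hdac6 vector 2 it was 8 of 17 (median -0.085). Both Hdac6 vector arrays were higher on 2 probes (Cfl1 probe 3 and Dstn) and both were lower on 1 (Pfn2 probe 2), while 13.1% and 11.9% of all tested probes were separated in these ways. Pfn2 probe 2 was tested only through its flags on the empty vector arrays, where it is higher, so its direction and its p carry that selection.

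The 95% intervals say how large a change these arrays could have missed. For 14 of the 17 probes the interval lay within 2-fold in either direction, and for 0 within 1.5-fold. The exceptions to the first were both Pfn2 probes, on the lower side, and Cfl1 probe 3, on the higher side. For 16 of the 17 the difference between the groups was smaller than the wider of the gaps between replicates, the other being Cfl1 probe 3. These counts were not made over all tested probes, so they are not shown to be particular to these genes. Changes within the intervals could thus have been missed with 2 arrays a group.

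**Figure D2:**
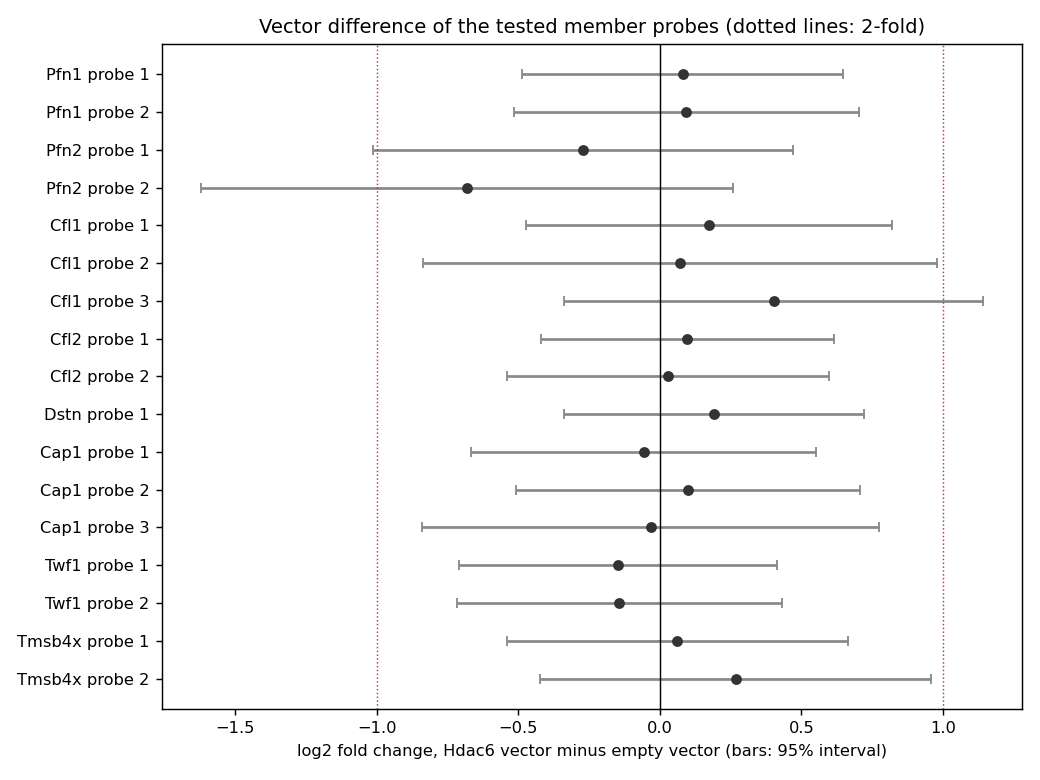
Log2 fold change (Hdac6 vector minus empty vector) of the 17 tested member probes with 95% intervals of the limma fit; dotted lines mark 2-fold. Pfn2 probe 2 is fitted to readings that are not well above background on the Hdac6 vector arrays. Every interval includes 0, and those of both Pfn2 probes and of Cfl1 probe 3 cross a dotted line.

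The arrays did not sort by vector for these genes. On the 17 probes the array nearest in level to Hdac6 vector 1 was empty vector 2 for 9, empty vector 1 for 4 and Hdac6 vector 2 for 4. Over all tested probes these shares were 52.2%, 24.9% and 22.9%. The array nearest to empty vector 1 was Hdac6 vector 2 for 10 of the 17, against 39.5% of all tested probes. The one nearest to Hdac6 vector 2 was empty vector 2 for 9, against 32.8%. By the median absolute log2 difference over the 17 probes, the 3 closest pairs each joined an empty vector and an Hdac6 vector array (0.17 to 0.19), and replicates differed by 0.34 (empty vector) and 0.32 (Hdac6 vector). Over all tested probes this difference was smallest, 0.19, for Hdac6 vector 1 and empty vector 2, and 0.29 to 0.33 for the other pairs. The labels name nothing that these arrays share.

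The authors' value table gives 1 log2 value per gene name and array, and it lets the same genes be read after their averaging. For 9 of the 10 members, in the authors' deposited table, each value equals the mean over all probes of the gene plus a constant per array, within 0.01. The exception was Pfn2, which the authors' deposited table puts at -0.40 and -0.43 on the empty vector arrays and at 3.72 and 3.98 on the Hdac6 vector arrays. On the empty vector arrays this is the mean of both probes, and on the Hdac6 vector arrays it is the value of probe 1 alone. The mean of only the probes that were well above background gave all 10 members within 0.01, where a gene with none takes the mean of all. Pfn2 was the only member whose number of such probes differed between arrays, 2 with the empty vector and 1 with the Hdac6 vector.

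For the other 7 tested members, differences in the authors' deposited table ran from a log2 of -0.23 (Twf1) to 0.13 (Cfl1), and limma on that table gave an adjusted p of 1.00 for each. For Pfn2 the difference in the authors' deposited table was 4.26 (limma adjusted p = 0.0113). Averaging also mixes probes of unlike signal in genes that kept all their probes. The Cap1 value of the first empty vector array in the authors' deposited table, 1.72, stands for probes at 7.10, 1.51 and -4.26 before the constant of 0.27.

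**Figure D3:**
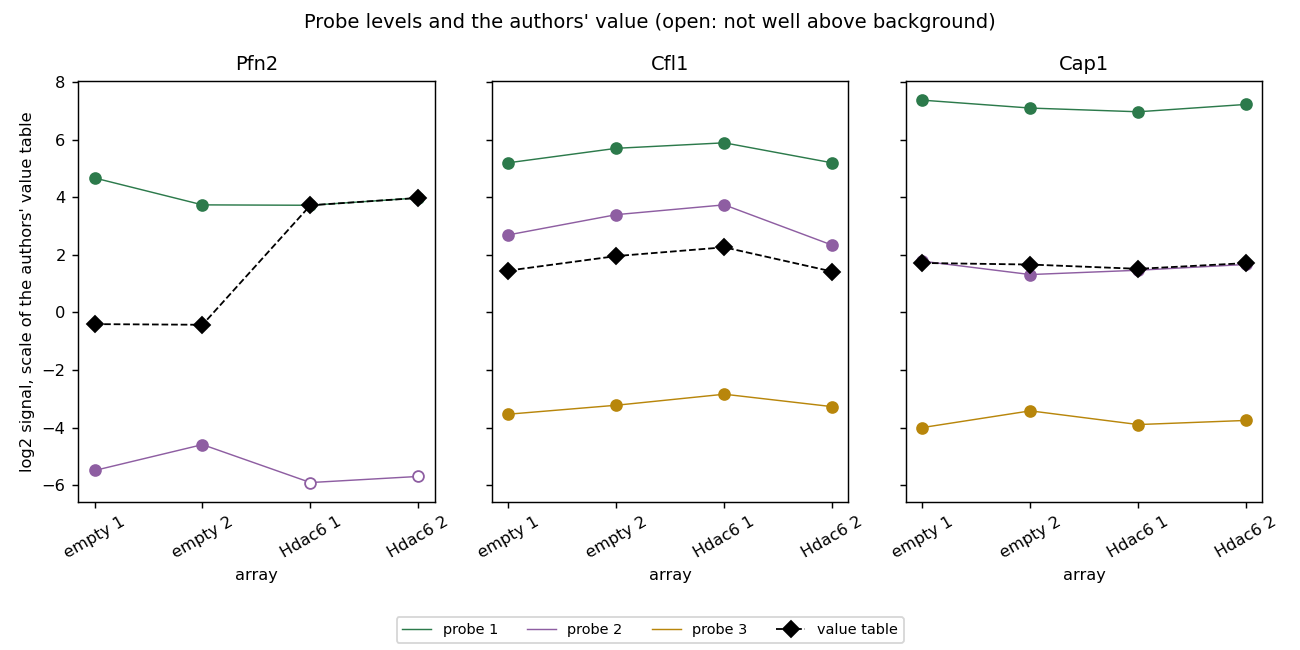
Levels of each probe of Pfn2, Cfl1 and Cap1 on each array, on the log2 scale of the authors' deposited table, with that table's value as black diamonds; open circles are not well above background. For Pfn2 the table's value lies midway between the probes on the empty vector arrays and on probe 1 on the Hdac6 vector arrays; for Cfl1 and Cap1 it lies at the mean of 3 probes throughout.

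The wider monomer pathway was read from 5 lists, taking the brightest tested probe of each gene. None of their 67 tested genes passed (0, limma adjusted p), and 5 had an unadjusted p under 0.05, against 0.00851% and 1.84% of all 23492 genes tested. The brightest probes of the 8 tested members ranged from 0.828-fold to 1.14-fold, with a median log2 of 0.07 against 0.00 over all genes. By list, both Hdac6 vector arrays lay above both empty vector arrays in 4 of 15 other actin monomer binders. The counts were 1 of 18 for cofilin kinases, phosphatases and co-factors and 3 of 19 for profilin ligands. For severing and capping genes and for actins they were 0 of 9 and 5 of 6. Both arrays lay below in 3, 4, 3, 2 and 0, in the same order of lists. Of all genes tested, 12.3% lay above and 12.9% below. Genes named from these lists are those with the highest and the lowest log2 fold change, as values only, and Tmsb10 and Acta2 besides.

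Among the other actin monomer binders 8 of 15 were above 0 (median log2 0.08), and 7 with median scaling (-0.014) or 6 without Hdac6 vector 2 (-0.054). Spire1, which nucleates filaments from monomers and was not well above background on empty vector 1, read -6.71 and -5.04 on the empty vector arrays and -4.96 and -1.73 on the Hdac6 vector arrays. Hdac6 vector 2 stood far above the other arrays, and the log2 difference of 2.53 (limma adjusted p = 1.00) takes the dim reading of empty vector 1 as it stands. It was 0.93 with normexp and 0.91 without Hdac6 vector 2. The limma adjusted p was 0.00178 with the replicate block and 0.432 with the crossed block. Without empty vector 2, where the dim reading alone stands for the empty vector, the log2 difference was 3.36. Spire1 was tested only through its flags on the Hdac6 vector arrays, where it is higher, so its direction carries that selection. Phactr4, a G-actin binding regulator of protein phosphatase 1, was lowest at 0.747-fold (95% interval 0.509 to 1.10). Tmsb10, the other abundant beta-thymosin, belongs to the same list and was at 1.06-fold (0.729 to 1.53), a gene picked after its values were seen.

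Of the 18 cofilin kinases, phosphatases and co-factors, 7 were above 0 (median log2 -0.10), against 11 without Hdac6 vector 1 (0.10) and 10 without empty vector 1 (0.017). The slingshot phosphatase gene Ssh1, whose product activates cofilin, was lowest, at 0.61 and -0.16 on the empty vector arrays and -0.34 and -0.81 on the Hdac6 vector arrays. Both Hdac6 vector arrays were below both empty vector arrays, as in 4 of the 18, against 12.9% of all genes tested. At 0.572-fold (95% interval 0.343 to 0.955) Ssh1 did not pass (limma adjusted p = 1.00). Coro1b, a coronin gene, was highest at 1.23-fold (0.829 to 1.83).

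The profilin ligands, formins, Ena/VASP and WASP family genes, were above 0 for 8 of 19 (median log2 -0.06). Was, the blood-cell WASP gene, was highest at 1.57-fold (95% interval 0.957 to 2.58), and Wipf1, which encodes a WASP-interacting protein, was lowest at 0.672-fold (0.353 to 1.28). Severing and capping genes were above 0 for 4 of 9, with a median log2 of 0.00 to 2 decimals, and for 6 without Hdac6 vector 1 (0.14) or 2 without Hdac6 vector 2 (-0.27). In that list Capzb, a capping protein subunit gene, was highest at 1.13-fold (0.776 to 1.66) and Vil1, the villin gene, lowest. Vil1 was not well above background on Hdac6 vector 2, and taking that reading as it stands it was at 0.563-fold (0.332 to 0.955, limma adjusted p = 1.00). Its log2 difference of -0.83 was -0.19 with normexp. It was tested only through its flags on the empty vector arrays, where it is higher, so its direction carries that selection. None of these 4 passed.

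The actins had a log2 fold change above 0 for all 6 genes, against 50.7% of all genes tested. It was above 0 for 5 of 6 with normexp, with median scaling or without Hdac6 vector 2, where Actb was below 0. The median was 0.50, and 0.37, 0.41 and 0.47 under those settings. Actc1, the cardiac isoform, was at -2.05 and -1.79 on the empty vector arrays and -1.10 and -1.17 on the Hdac6 vector arrays (1.72-fold, 95% interval 1.11 to 2.68, limma adjusted p = 1.00). Acta2, the smooth muscle isoform, is neither the highest nor the lowest of the list and was picked after its values were seen. It was at 3.06 and 3.12 against 3.58 and 3.73 (1.48-fold, 1.04 to 2.10, adjusted p = 1.00). Both Hdac6 vector arrays lay above both empty vector arrays in 5 of the 6, against 12.3% of all genes tested, the exception being Actb at 1.06-fold (0.693 to 1.61). None passed, though a dimmer Acta2 probe did without empty vector 2 (log2 1.54, limma adjusted p = 0.0406). Actin genes are alike in sequence, so their probes may share signal.

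The peritubular myoid markers Acta2, Myh11, Cnn1 and Des, were all 4 well above background on every array. Their summed signal, in multiples of the array's 75th percentile, was 16.0 and 16.2 on the empty vector arrays and 22.6 and 26.3 on the Hdac6 vector arrays. Acta2 is on both lists, so this sum is not a reading separate from the actin values. The part of these markers in the actin values was not tested. The leukocyte markers summed to 33.8 and 20.1 against 18.3 and 15.2, with 4 of 5 well above background on all arrays and Adgre1 on none.

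**Figure D4:**
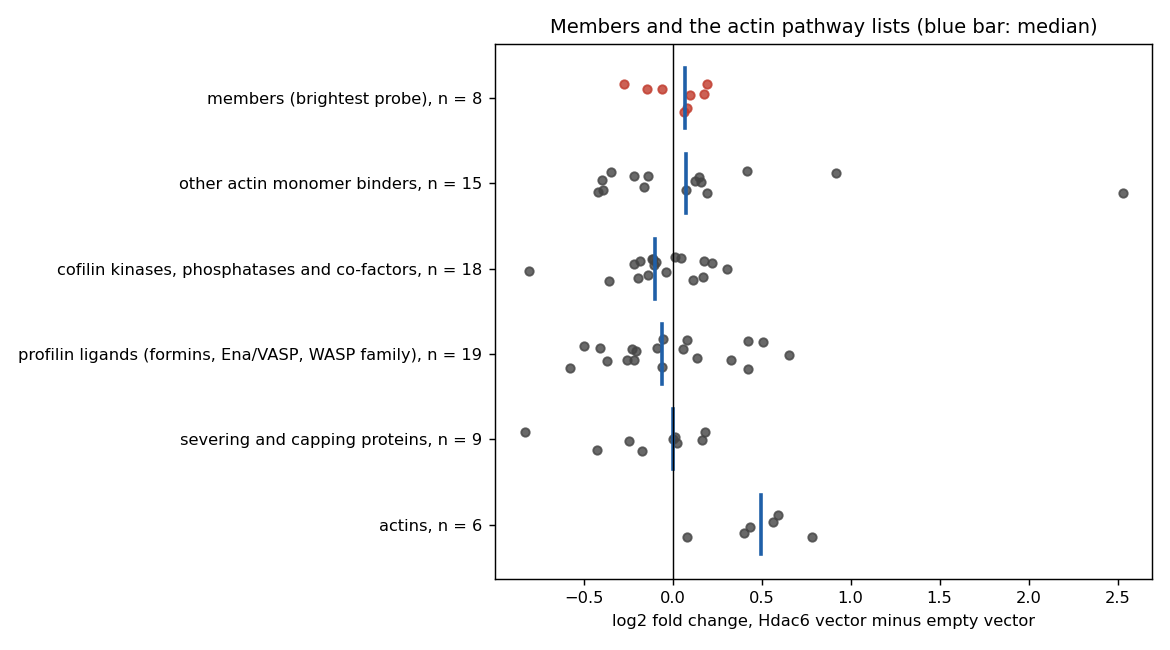
Log2 fold change (Hdac6 vector minus empty vector) of the brightest tested probe of each gene, for the 8 tested members (red) and the 5 pathway lists (grey), with the median of each as a blue bar. The members lie between -0.27 and 0.19, the actins all lie above 0 (Actb below 0 with normexp, median scaling or without Hdac6 vector 2), and the point at 2.53 is Spire1, which was not well above background on empty vector 1.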

How the data were processed

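Per the file headers, the authors' scanner files hold the spots' intensity as written by Feature Extraction 11.5.1.1 with its protocol GE1_1105_Oct12. Processed intensity has had background subtracted and spatial trends removed, with no normalization between arrays by the authors in these files. The deposited value table holds log2 values, with a row for each gene name, made by steps not given in the sources used here. Set against the same arrays, its 25183 names with 1 probe differed from the levels by a constant per array for at least 99.8% of rows within 0.01, which fixes their scale and direction. Its column medians were -3.78, -3.67, -3.71 and -3.68.

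Spots flagged as outliers were left out (no member spot was), log2 processed signals of repeated probes were averaged, and each array's 75th percentile over probes that are no controls was subtracted. A probe was tested if well above background on both arrays of at least 1 group (35205 probes). The vectors were compared with limma 3.58.1 in R 4.3.3 (lmFit, eBayes with a trend), as a two-sided test, adjusting p by Benjamini-Hochberg over the 35205 probes at a threshold of 0.05. In data simulated for this comparison on 35205 probes, 24 of 50 probes changed 2-fold and 50 of 50 changed 4-fold were recovered, with 9 false calls. The simulated noise was normal, independent between arrays, and its spread was set by the level of a probe alone. It therefore does not give the recovery on the real arrays. The labels name no pairing of same-numbered arrays, so no block was used. The correlation of same-numbered deviations was -0.36 over tested probes. With 2 arrays a group this value cannot tell whether the arrays were paired. Members and lists were chosen with earlier results of these data known. Named genes are all members, Hdac6, list genes that pass or else the highest and lowest of each list, and the 3 genes most like Pfn2 probe 1. The cell type markers are a list of their own, and Acta2 and Tmsb10 were named besides, after their values were seen. No reference sequence was used, and sequences are given for 5 of the 19 member probes. The number of arrays limits the precision.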

Additional observations from a re-analysis of the deposited data

Results flagged for a closer look

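The Pfn2 row of the authors' deposited table, which holds values of the same arrays, was higher with the Hdac6 vector by a log2 difference of 4.26. That row equals the mean of 2 probes on the empty vector arrays and the value of probe 1 alone on the Hdac6 vector arrays. Pfn2 probe 1 was at -0.27 in the scanner values, and probe 2 did not pass the background flag on the arrays of the Hdac6 vector. Groups of 2 arrays are too small for a check of single outlying arrays.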

How the results depend on the processing

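Of the 17 tested member probes, 0 passed under any of the 13 other settings, the crossed block included, which was chosen after seeing the data. The signs were less stable: they turned in 26 of 220 values, for 13 of the 17 probes, and never for Cfl1 probe 3, Cfl2 probe 1, Dstn or Tmsb4x probe 2, though median scaling brought Cfl2 probe 1 down to 0.0057. The turned log2 values were 0.016 for Pfn2 probe 2 and 0.11 for Cap1 probe 3 with normexp, -0.0079 for Tmsb4x probe 1 with quantile normalization, and -0.011 for Pfn1 probe 1, -0.019 for Cfl1 probe 2, -0.062 for Cfl2 probe 2 and -0.029 for Tmsb4x probe 1 with median scaling. Leaving out each array in turn, log2 fold changes ran from -0.16 to 0.32 (Pfn1 probe 1), -0.15 to 0.33 (Pfn1 probe 2), -0.74 to 0.19 (Pfn2 probe 1), -0.090 to 0.44 (Cfl1 probe 1), -0.54 to 0.69 (Cfl1 probe 2), -0.14 to 0.20 (Cfl2 probe 2), -0.27 to 0.15 (Cap1 probe 1), -0.13 to 0.33 (Cap1 probe 2), -0.32 to 0.26 (Cap1 probe 3), -0.31 to 0.014 (Twf1 probe 1), -0.30 to 0.014 (Twf1 probe 2) and -0.10 to 0.22 (Tmsb4x probe 1). Pfn2 probe 1 was above 0 only without empty vector 1. Taken as 1 gene, Pfn2 stood at -0.48 by the mean of all its probes and did not pass. It stood at 4.34 by the mean of the probes well above background on each array (limma adjusted p = 0.00635). In the authors' deposited table it stood at 4.26 (limma adjusted p = 0.0113). In both of these last readings the number of probes averaged differs between the groups. Cap1 stood at 0.0030 by the mean of all its probes or of those well above background, and Cfl2 at -0.018 in the authors' deposited table. Over all probes the count passing, 4, became 29 with normexp, 2 with quantile normalization, 0 with median scaling, 0 with the percentile over probes above background on all arrays, 2 with no trend, 22 with the replicate block, 15 with the crossed block, and 0 to 302 with an array left out (12 without empty vector 1, 302 without empty vector 2, 0 without either Hdac6 vector array). The cause was not tested. No gene of the 5 lists passed (0) with normexp, quantile normalization or median scaling. Removing the filter moved the median of all probes to 0.11, from 0.02.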
